A study of Mus musculus with 4 samples.

Results

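Cd48 and 5 other receptor genes of the SLAM family (signalling lymphocytic activation molecule family) were followed across 4 sorted mouse bone marrow populations. The 6 genes, Cd48, Cd244, Slamf1, Ly9, Cd84 and Slamf9 were found by gene symbol in the platform annotation, where Cd244 stands under its current symbol Cd244a. They had 9 probe sets and were 6 of the 12393 genes that the annotation names. The arrays held CD11b+, Gr1-high granulocytes of a heterozygous mouse (genotype GFP:Gfi1 KI/WT), CD11b+, Gr1-low cells of a Gfi1 knock-out mouse (genotype GFP:Gfi1 KI/KI, called Gfi1-deficient cells), and the GFP-high and the GFP-low fractions of CD11b+, Gr1-low cells of a heterozygous mouse (GFP:Gfi1 KI/WT). The labels do not say whether animals were pooled. In these mice the green fluorescent protein (GFP) is knocked into the Gfi1 locus, so every population carried at least 1 GFP allele and none was wild type at Gfi1. All mice were untreated, 8 weeks old, on the C57BL/6 strain after at least 10 generations of backcrossing, and kept free of specific pathogens. Gfi1 is a transcriptional repressor that takes part in the choice between the granulocyte and the monocyte fate, which is the question of the series. No GFP gate is given in the labels for the Gfi1-deficient sample, so genotype and sort differ together wherever they are compared with a GFP fraction.

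Each population was measured on 1 array, so there is no spread between animals, no test and no p-value, and every value describes these 4 arrays. Values are the deposited log2 signals, and values under the 40th percentile of all of them, a log2 value of 5.18 called the floor here, were treated as not measurable. The only error that could be estimated was how far probe sets of the same gene scatter, an SD of 0.16 to 0.39 on the log2 scale depending on the pair of arrays, which does not cover variation between animals. The 6 pairs share arrays and are not independent of each other. Gfi1 read 7.31 in granulocytes, 5.18 in Gfi1-deficient cells, 10.31 in GFP-high cells and 3.74 in GFP-low cells. It was under the floor in Gfi1-deficient and GFP-low cells, and where its probe set lies relative to the knock-in is not known here. The array of Gfi1-deficient cells stood apart in the sex-linked transcripts: Xist read 5.80 there and between 9.56 and 10.93 on the other arrays, and Eif2s3y, on the Y chromosome, read 8.31 there against at most 4.39 elsewhere. Sex and genotype therefore cannot be told apart in comparisons with this array.

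The labels call all 3 Gr1-low populations monocytes. Monocyte markers went against that name in GFP-high cells: 7 of 7 measured markers were at least 2-fold lower there than in GFP-low cells, beside 9.61% of all genes above the floor. Their median log2 difference was -4.14, and Ccr2, the chemokine receptor by which monocytes leave the marrow, was 47.2-fold lower. Of 9 granulocyte markers, 5 were higher by 2-fold or more in GFP-high than in GFP-low cells, beside 9.03% of all genes. In Gfi1-deficient cells the monocyte markers had a median difference of -0.01 from GFP-low cells. None of 7 reached 2-fold, in a pair where only 1.91% of all genes did. Granulocyte markers did differ between these populations: 5 of 9 were lower by 2-fold or more in Gfi1-deficient cells than in the GFP-low fraction, beside 1.27% of all genes. The median of the 9 was -1.28. The lower markers included Camp (32.9-fold), Ltf (28.2-fold) and Ngp (11.5-fold), which encode granule proteins of neutrophils. The part of these markers in the readings of the SLAM genes was not tested. The GFP fractions are therefore called GFP-high cells and GFP-low cells below.

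SLAM family receptors are immunoglobulin-like proteins on the surface of blood cells, and most of them bind a copy of themselves on a neighbouring cell. CD48 differs from its relatives in that it is held in the membrane by a glycosylphosphatidylinositol (GPI) anchor and has no cytoplasmic tail, and its high-affinity partner is CD244. The tails of most other receptors, but not of SLAMF8 and SLAMF9, carry tyrosine motifs that recruit SAP family adaptors, the kinase FYN and inhibitory phosphatases. In mouse bone marrow, CD150 (the Slamf1 product), CD48 and CD244 are used together to tell stem cells from progenitors. All 6 genes lie on chromosome 1, 5 of them in 1 cluster in which the order in RefSeq's table is Cd244a, Ly9, Slamf7, Cd48, Slamf1, Cd84 and Slamf6, with Slamf9 and Slamf8 farther along.

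Cd48, the GPI-anchored ligand, was high in Gfi1-deficient and GFP-low cells and low in granulocytes and GFP-high cells. Its single probe set read 7.10 in granulocytes, 10.98 in Gfi1-deficient cells, 7.78 in GFP-high cells and 11.22 in GFP-low cells. The 2 high and the 2 low arrays were separated by more than 3 log2 units, and all 4 readings were above the floor. Cd48 was 10.9-fold lower in GFP-high than in GFP-low cells (log2 difference -3.45) and 17.4-fold lower in granulocytes than in GFP-low cells (-4.12). It was 9.19-fold higher in Gfi1-deficient than in GFP-high cells (3.20) and 14.7-fold lower in granulocytes than in Gfi1-deficient cells (-3.88). The remaining differences were small by comparison, with Cd48 1.60-fold lower in granulocytes than in GFP-high cells (-0.68) and 1.19-fold lower in Gfi1-deficient cells than in the GFP-low fraction (-0.25). Among all genes above the floor, 0.223% were as far or farther on the lower side in granulocytes against GFP-low cells, 1.03% in GFP-high against GFP-low cells, and 14.7% in Gfi1-deficient against GFP-low cells.

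The promoters of Cd48, of its receptor Cd244a and of Cd84 are shown because these genes had 3 different orders of levels over the arrays and the series concerns Gfi1, a factor known to bind sites with the core AATC. Each run gives 250 bases before to 50 bases after the start of the gene, 5′ to 3′ on the + strand of GRCm38.p6, from RefSeq, and capitals mark AATC on either strand (AATC or GATT). Of the 6 genes, 5 had a promoter in the table used.
Cd48, chr1:171681742-171682041: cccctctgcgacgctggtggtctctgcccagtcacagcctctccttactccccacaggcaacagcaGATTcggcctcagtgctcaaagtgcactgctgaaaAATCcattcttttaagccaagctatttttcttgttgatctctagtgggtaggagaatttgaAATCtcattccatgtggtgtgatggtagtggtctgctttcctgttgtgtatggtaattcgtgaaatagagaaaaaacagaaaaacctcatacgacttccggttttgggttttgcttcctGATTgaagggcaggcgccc
Cd244a, chr1:171558943-171559242: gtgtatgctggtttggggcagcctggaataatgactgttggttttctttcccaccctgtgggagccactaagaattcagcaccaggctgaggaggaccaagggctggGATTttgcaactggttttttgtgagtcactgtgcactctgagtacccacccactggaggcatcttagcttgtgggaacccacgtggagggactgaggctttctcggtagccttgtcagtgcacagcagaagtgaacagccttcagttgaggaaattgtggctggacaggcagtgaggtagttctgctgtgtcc
Cd84, chr1:171839447-171839746: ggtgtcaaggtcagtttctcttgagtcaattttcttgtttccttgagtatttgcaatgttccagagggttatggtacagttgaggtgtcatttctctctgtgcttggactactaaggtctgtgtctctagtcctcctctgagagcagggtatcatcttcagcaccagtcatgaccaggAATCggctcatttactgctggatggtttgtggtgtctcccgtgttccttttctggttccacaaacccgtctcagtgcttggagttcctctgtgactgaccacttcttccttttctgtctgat
The Cd48 promoter held 4 matches to AATC, a number reached or passed by 10.1% of the 32851 promoters in the table, while those of Cd244a and Cd84 held 1 match each, and 73.1% of all promoters held at least 1. The number was not particular to Cd48 within the family: the promoter of Slamf7 also held 4 matches, and those of Slamf1, Slamf6 and Slamf9 held 3 each. GAGGAA, the purine-rich core bound by PU.1, a master regulator of myeloid cells, was found on either strand (GAGGAA or TTCCTC) 1 time in the Cd244a and 1 time in the Cd84 promoter, against 28.3% of all promoters with a match, and these letters were not in the Cd48 window. The composite element of ETS and IRF core sites, searched on both strands, was in none of the 3 windows and in 2.72% of all promoters. No AATC match overlapped a GAGGAA match in these windows, and a match describes letters, not binding.

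**Figure D1:**
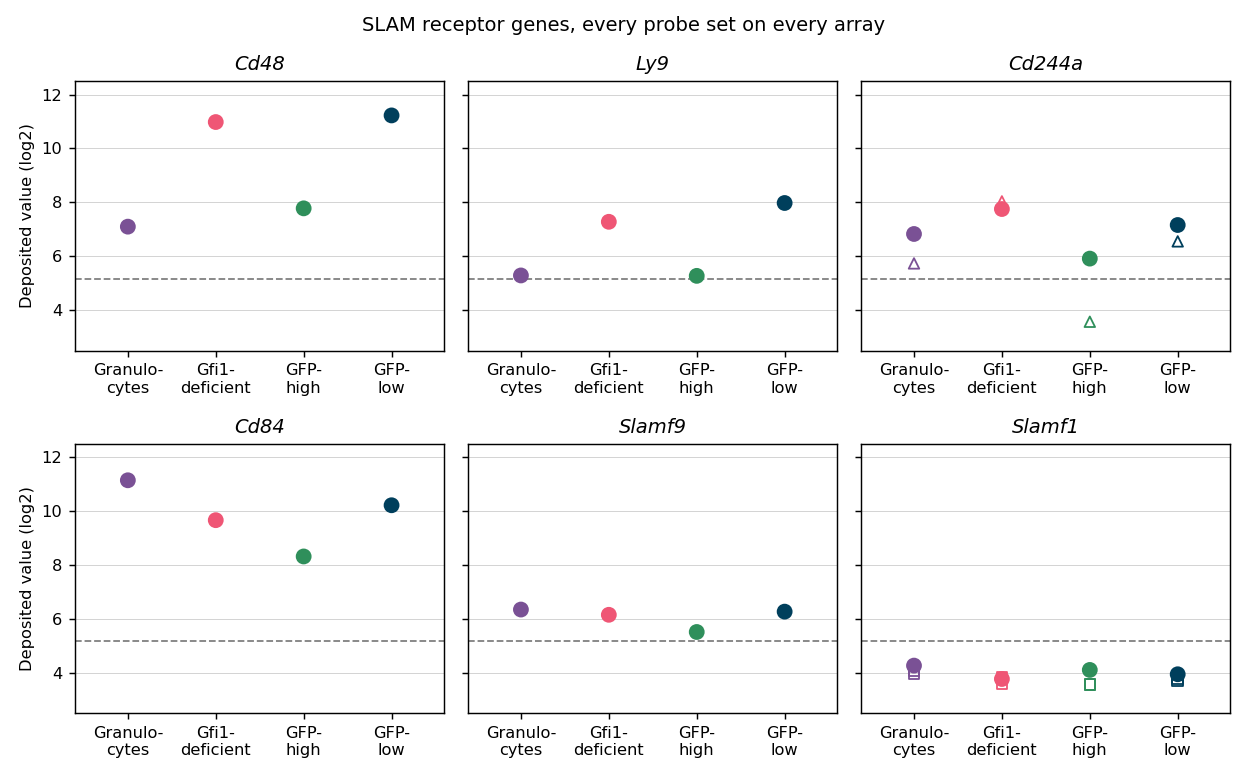
Deposited log2 values of the 6 SLAM receptor genes (vertical axis) on the 4 arrays (horizontal axis). Filled points are the probe set that represents the gene, open symbols are its other probe sets, and the dashed line is the floor at 5.18. Cd48 and Ly9 were high in Gfi1-deficient and GFP-low cells, Cd84 was highest in granulocytes at 11.14, and all 3 Slamf1 probe sets lay under the floor.

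Ly9 encodes CD229, a receptor that binds itself, and shared the split of Cd48. Its probe set read 5.29 in granulocytes, 7.28 in Gfi1-deficient cells, 5.28 in GFP-high cells and 7.98 in GFP-low cells. The 2 low readings were just above the floor, so the differences against them are close to what the floor allows, and they lay 0.02 apart on the log2 scale, within the scatter between probe sets. Ly9 was 6.51-fold lower in GFP-high than in GFP-low cells (-2.70) and 6.44-fold lower in granulocytes than in GFP-low cells (-2.69). It was 4.01-fold higher in Gfi1-deficient than in GFP-high cells and 3.97-fold lower in granulocytes than in Gfi1-deficient cells. Between Gfi1-deficient and GFP-low cells it was 1.62-fold lower (-0.70), a fall as large or larger in 2.61% of genes.

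Cd244a encodes 2B4, the receptor for CD48, and had its highest reading in Gfi1-deficient cells on both of its probe sets. The representing probe set read 6.83 in granulocytes, 7.75 in Gfi1-deficient cells, 5.92 in GFP-high cells and 7.16 in GFP-low cells. The other probe set read 5.74 in granulocytes, 8.04 in Gfi1-deficient cells, 3.57 in GFP-high cells, which is under the floor, and 6.55 in GFP-low cells. Both thus gave the same order of the 4 arrays, with GFP-high cells lowest. On both probe sets Cd244a was at least 2-fold lower in GFP-high than in GFP-low cells, 2.37-fold on the first and at least 2.60-fold on the second. It was also at least 2-fold higher in Gfi1-deficient than in GFP-high cells on both, 3.58-fold and at least 7.26-fold. Against GFP-low cells the probe sets disagreed in size, Gfi1-deficient cells being 1.51-fold higher on the first (0.59) and 2.80-fold higher on the second (1.48). They disagreed likewise for granulocytes against Gfi1-deficient cells, with log2 differences of -0.93 and -2.30. Cd48 and its receptor therefore did not have the same order on these arrays, since Cd48 was highest in GFP-low cells, though by only 1.19-fold over Gfi1-deficient cells. For Cd244a, granulocytes and GFP-low cells differed on the first probe set by less than the scatter between probe sets (-0.33).

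Cd84, a receptor that binds itself and is known from platelets, mast cells and macrophages, went the other way from Cd48 in granulocytes. It read 11.14 in granulocytes, 9.67 in Gfi1-deficient cells, 8.32 in GFP-high cells and 10.22 in GFP-low cells, with granulocytes highest and GFP-high cells lowest. In granulocytes Cd84 was 7.09-fold higher than in GFP-high cells (2.83), a rise reached or passed by 0.934% of genes, and 2.79-fold higher than in Gfi1-deficient cells (1.48). Against GFP-low cells granulocytes were 1.90-fold higher (0.93), under the 2-fold rule. GFP-high cells were 3.73-fold lower than GFP-low cells (-1.90), Gfi1-deficient cells were 2.54-fold higher than GFP-high cells (1.35), and Gfi1-deficient cells were 1.47-fold lower than GFP-low cells (-0.55).

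Slamf9, a family member with a very short cytoplasmic tail, varied least among the measurable genes. It read 6.35 in granulocytes, 6.16 in Gfi1-deficient cells, 5.52 in GFP-high cells and 6.27 in GFP-low cells. Granulocytes, Gfi1-deficient and GFP-low cells lay within the scatter between probe sets of each other, and GFP-high cells were lower, by 1.69-fold against GFP-low cells (-0.75). Slamf1, which encodes the stem cell marker CD150, was not measurable: its 3 probe sets read between 3.57 and 4.27 on all arrays, under the floor, so no fold is given. Of the family genes outside the chosen 6, Slamf6 read at most 5.18 and Slamf7 at most 4.43 on any array. Slamf8, a myeloid member of the family, read 4.43 in granulocytes, 5.72 in Gfi1-deficient cells, 3.98 in GFP-high cells and 7.84 in GFP-low cells. It was at least 6.35-fold lower in GFP-high than in GFP-low cells, at least 6.35-fold lower in granulocytes than in GFP-low cells, and 4.35-fold lower in Gfi1-deficient cells than in the GFP-low fraction (-2.12), a fall as large or larger in 0.237% of genes.

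Counts over the family are set beside the share of all genes above the floor on at least 1 array of the pair that passed the same 2-fold rule. Slamf1 enters no count, which leaves 5 genes. In GFP-high against GFP-low cells, 4 of 5 receptor genes were at least 2-fold lower and none higher, against 9.61% of 8232 genes lower and 9.03% higher (18.6% in either direction), and the median difference was -1.90 for the 5 genes and 0.03 for all genes. In Gfi1-deficient against GFP-high cells, 4 of 5 were at least 2-fold higher and none lower, against 9.53% of 8195 genes higher and 7.81% lower (17.3% in either direction), with a median of 1.84 for the 5 and -0.02 for all. Cd48, Ly9, Cd84 and Cd244a were the 4 genes in both counts, and both pairs contain the same GFP-high array. In Gfi1-deficient against GFP-low cells, none of 5 reached 2-fold in either direction, where 1.91% of 8010 genes did (0.637% higher and 1.27% lower), and the median was -0.25 against 0.03 for all genes.

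Granulocytes gave mixed directions. Against GFP-low cells 2 of 5, Cd48 and Ly9, were at least 2-fold lower, and none higher, against 18.2% of 8503 genes lower and 10.0% higher (28.2% in either direction), and the median was -0.33 against 0.00 for all genes. Against GFP-high cells 1 of 5, Cd84, was at least 2-fold higher, and none lower, against 8.93% of 8457 genes higher and 16.4% lower (25.3% in either direction), with a median of 0.83 for the 5 genes and 0.03 for all. Against Gfi1-deficient cells Cd48 and Ly9 were at least 2-fold lower, where 20.3% of 8520 genes were, and Cd84 was at least 2-fold higher, where 11.2% were (31.5% in either direction), with a median of -0.93 for the 5 genes and -0.01 for all.

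**Figure D2:**
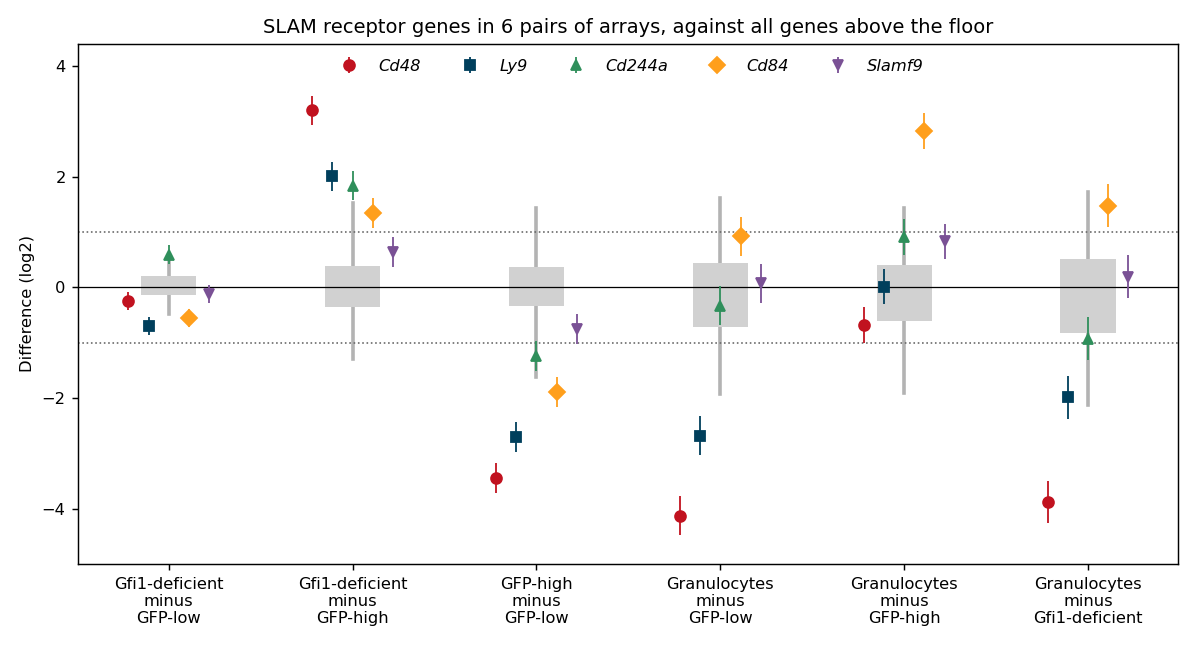
Log2 differences (vertical axis) of the 5 measurable SLAM receptor genes in the 6 pairs of arrays (horizontal axis), with bars of 1 SD between probe sets of a gene. Grey boxes hold the middle 50% of all genes above the floor, grey lines run between their 5th and 95th percentiles, and dotted lines mark 2-fold. Cd48 lay at -3.45 in GFP-high minus GFP-low and at -0.25 in Gfi1-deficient minus GFP-low, and Cd84 lay above 0 in all 3 pairs with granulocytes on top.

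Genes that act with the receptors were read from a list of 20 signalling partners, of which 16 had a probe set and 15 were above the floor. Fyn, the SRC family kinase that SAP brings to SLAM receptors, read 5.90 in granulocytes, 7.53 in Gfi1-deficient cells, 5.64 in GFP-high cells and 7.85 in GFP-low cells. It thus had the same high and low arrays as Cd48 and Ly9. So did the monocyte markers: 7 of 7 were also at least 2-fold lower in granulocytes than in GFP-low cells, beside 18.2% of all genes. Fyn was 4.60-fold lower in GFP-high than in GFP-low cells (-2.20), 3.85-fold lower in granulocytes than in GFP-low cells (-1.94), and 3.69-fold higher in Gfi1-deficient than in GFP-high cells (1.88), and its 2 probe sets passed 2-fold in each of these pairs.

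In GFP-high against GFP-low cells 3 of 15 partners passed 2-fold, near the 18.6% of all genes that did. Lower were Fyn and Csk, an inhibitory kinase of SRC family members (2.11-fold), and higher was the adaptor gene Dok2 (2.44-fold). In granulocytes against GFP-low cells, Dok2 was 3.14-fold and Fgr, a myeloid SRC family kinase, 2.12-fold higher, and Fyn was the 1 gene lower. In granulocytes against GFP-high cells, Fgr was 2.88-fold and Bcl10, an adaptor of NF-kappaB signalling, 2.85-fold higher. Against Gfi1-deficient cells, granulocytes had 2 partners at least 2-fold higher, Fgr by 2.59-fold and Dok2 by 2.05-fold, and Fyn was 3.08-fold lower. Granulocytes thus had 2 or 3 of 15 partners past 2-fold in each pair, beside 25.3% to 31.5% of all genes. None of 15 reached 2-fold in Gfi1-deficient against GFP-low cells, where only 1.91% of all genes did. Ptpn6, which encodes the phosphatase SHP-1, read between 11.11 and 11.65 on the 4 arrays, and Inpp5d, which encodes the lipid phosphatase SHIP-1, between 9.15 and 9.86. The SAP gene itself, Sh2d1a, read at most 3.86, and Cd2, a lower-affinity ligand of CD48 in the mouse, at most 4.44, both under the floor on all arrays. SLAMF1 is known to engage the Beclin-VPS34 complex and the NADPH oxidase in macrophages. Of the 5 genes listed for these, Becn1, Pik3c3, Pik3r4, Uvrag and Cybb, Uvrag passed 2-fold, being 2.37-fold lower in granulocytes than in GFP-low cells and 2.45-fold lower than in Gfi1-deficient cells. This count of 1 in 5 was near the share of all genes lower by 2-fold in these pairs, 18.2% and 20.3%.

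**Figure D3:**
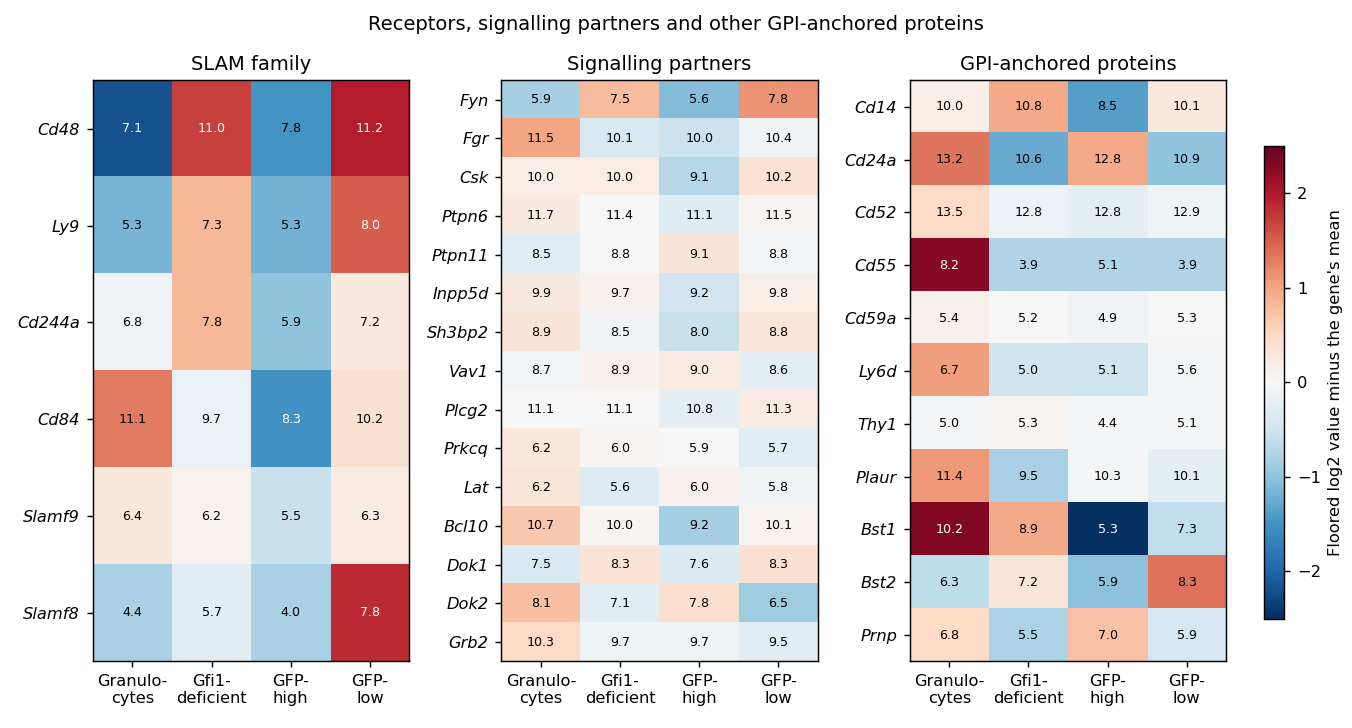
Deposited log2 values, printed in the cells to 1 decimal, of 6 SLAM family genes and of signalling partners and other GPI-anchored proteins with at least 1 array above the floor (rows), on the 4 arrays (columns). Colour gives each gene's value, with values under the floor set to it, minus its own mean over the arrays. Fyn had its high readings, 7.53 and 7.85, on the arrays where Cd48 was high, while Cd24a and Cd55 were highest in granulocytes.

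Because CD48 is GPI-anchored, other GPI-anchored surface proteins and the enzymes that make the anchor were read beside it. Of 11 measured surface proteins, 9 were above the floor in GFP-high or GFP-low cells. In GFP-high against GFP-low cells 3 of these 9 were at least 2-fold lower, beside 9.61% of all genes. They were Bst2 (5.28-fold), an interferon-induced tether of viruses, Bst1 (4.09-fold), a surface enzyme of the CD38 family, and Cd14 (3.12-fold), the co-receptor for lipopolysaccharide. Another 2 were higher, beside 9.03% of all genes. Cd24a, a small glycoprotein of immature and granulocytic cells, was 3.89-fold and Prnp, the prion protein gene, 2.25-fold higher. In granulocytes against GFP-low cells 5 of 10 were at least 2-fold higher, among them the complement regulator gene Cd55 (at least 8.22-fold), Bst1 (7.55-fold) and Cd24a (5.09-fold), and Bst2 was 3.98-fold lower, beside 10.0% of all genes higher and 18.2% lower. Their median difference in this pair was 1.02, while Cd48 stood at -4.12. In Gfi1-deficient against GFP-low cells, Bst1 was 2.94-fold higher and Bst2 2.10-fold lower, beside 0.637% of all genes higher and 1.27% lower. The other 8 of 10 stayed under 2-fold in that pair.

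Of 19 measured genes of anchor synthesis, 3 were higher and 1 was lower by 2-fold or more in GFP-high against GFP-low cells, beside 9.03% of all genes higher and 9.61% lower, with a median of 0.08. Piga, the catalytic subunit of the first step, was 3.95-fold higher on its representing probe set and by at least 0.93 log2 units on its other. Pigp, a subunit of the same enzyme, was 3.14-fold and Pigb, a mannosyltransferase gene, 2.06-fold higher, and Pigf, which acts in adding ethanolamine phosphate to the anchor, was 2.47-fold lower. Pigf was at least 5.02-fold lower in granulocytes than in GFP-low cells and at least 6.32-fold lower than in Gfi1-deficient cells. None of the 19 reached 2-fold in Gfi1-deficient against GFP-low cells, a pair in which only 1.91% of all genes did.

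Markers that are sorted together with CD48, CD150 and CD244 for stem and progenitor cells differed in how they were ordered over the arrays. Fcgr2b, an inhibitory Fc receptor, read 10.05 in granulocytes, 11.57 in Gfi1-deficient cells, 10.89 in GFP-high cells and 11.51 in GFP-low cells, so that, as for Cd48, its 2 higher readings were those of Gfi1-deficient and GFP-low cells and its lowest was that of granulocytes. It was 2.73-fold lower in granulocytes than in GFP-low cells and 2.85-fold lower than in Gfi1-deficient cells, on all 4 of its probe sets by at least 2-fold. Fcgr3, another Fc receptor gene of the list, was instead highest in granulocytes at 11.82, 2.11-fold above GFP-high cells. Kit, the stem cell factor receptor, read 6.51 in granulocytes, 4.42 in Gfi1-deficient cells, 8.11 in GFP-high cells and 3.96 in GFP-low cells. It was thus at least 7.66-fold higher in GFP-high than in GFP-low cells, a pair in which Cd48 was lower. On the other Kit probe set the rise was at least 1.60 log2 units. Cd9, a tetraspanin, was 10.7-fold higher in GFP-high than in GFP-low cells and 14.5-fold higher in granulocytes than in GFP-low cells. Flt3 read between 7.50 and 8.03 on the 4 arrays. None of the 8 sort markers above the floor reached 2-fold in Gfi1-deficient against GFP-low cells, where only 1.91% of all genes did.

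Cd48 profiles were compared with those of 3689 genes, those reaching the floor with a range of at least 1 log2 unit, by the Euclidean distance over the 4 arrays of floored log2 values after each gene was centred on its mean. With 4 points per gene many genes come near, and the 10 nearest lay on 7 chromosomes other than chromosome 1. Ehd4, an endocytic recycling protein gene, was nearest at a distance of 0.254 log2 units. It read 6.10 in granulocytes, 9.69 in Gfi1-deficient cells, 6.75 in GFP-high cells and 9.99 in GFP-low cells. Next came Evl, of the Ena/VASP family of actin regulators (0.336), Pdlim1, a PDZ and LIM domain protein gene (0.341), Rgs10, a regulator of G protein signalling (0.346), and Slc25a4, a mitochondrial ADP/ATP carrier (0.427). Dusp22, Crip1, Rnase4, Rnd3 and Nupr1 followed at 0.429 to 0.522. Ly9 was at rank 98 of the 3689 (1.441), Slamf8 at rank 492, Cd244a at rank 1034 and Cd84 at rank 2529 (4.256). Fyn was at rank 193, and the monocyte markers Irf8, Ccr2 and Csf1r were at ranks 13, 195 and 281. The genes nearest to Ly9 were Selenow, Aldh1b1 and Aif1, the gene of the macrophage protein IBA1. Those nearest to Cd244a were Prxl2c, Ibtk and Ndrg1, and those nearest to Cd84 were Ypel3, L1cam and H2-T24.

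**Figure D4:**
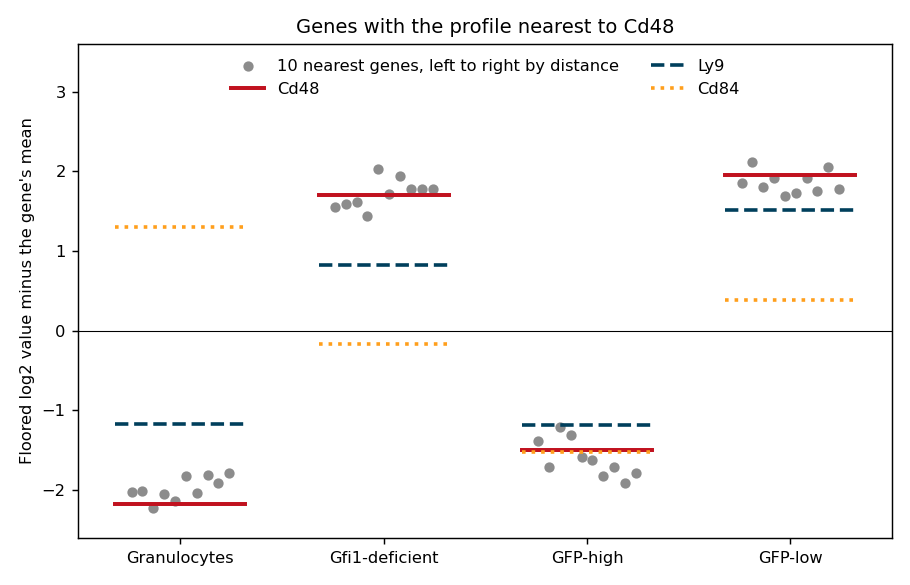
Floored log2 values minus each gene's mean over the arrays (vertical axis) on the 4 arrays (horizontal axis) for Cd48, Ly9 and Cd84 (lines) and for the 10 genes nearest to Cd48 (points, ordered by distance within an array). The points lie above 0 in Gfi1-deficient and GFP-low cells and below 0 in granulocytes and GFP-high cells, while Cd84 lies above 0 in granulocytes.

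Genes beside the SLAM cluster on chromosome 1 were read to see whether the difference extended along the chromosome. The 5 measured genes before Cd244a (Itln1, F11r, Usf1, Nectin4 and Pfdn2) and the 5 after Slamf6 (Vangl2, Nhlh1, Ncstn, Copa and Pex19) were taken after the data were seen. Of these 10, 7 were above the floor on any array, and none was measured at 2-fold or more in any of the 6 pairs. Of all genes above the floor, 1.91% to 31.5% passed 2-fold, depending on the pair, and 18.6% did in GFP-high against GFP-low cells. With so few flanking genes, a count of none cannot show whether the difference extended along the chromosome. F11r, a junctional adhesion molecule gene, was at least 0.94 log2 units higher in Gfi1-deficient than in both GFP fractions, where it was under the floor, so its difference there has no upper limit. In GFP-high against GFP-low cells their differences ran between -0.86, for the transcription factor gene Usf1, and 0.15, with a median of -0.47 over the 6 above the floor.

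SLAM receptors are also made by lymphocytes and dendritic cells, so markers of these cells were read on the same arrays. In bulk samples, fewer cells of a type and less RNA per cell cannot be told apart. The summed linear signal of 6 B cell markers was 650 in granulocytes, 252 in Gfi1-deficient cells, 289 in GFP-high cells and 396 in GFP-low cells. Pax5 and Ebf1, which define B cells, were under the floor on all arrays, but Cd79a, Cd79b and Vpreb3 were above it on all arrays. In granulocytes Cd79a read 7.47 and Vpreb3 7.55, each at least 2-fold above every other array. Cd3g, Cd8a, Trat1 and Cd5 among 7 T cell markers were under the floor throughout, while Cd3e and Cd4 were above it throughout. The summed signal of the T cell markers was 636, 220, 330 and 252 on the same arrays. For 5 NK cell markers it was 185, 127, 144 and 185, with 3, 0, 2 and 3 of them above the floor and Ncr1 under it throughout. All sums given here include readings under the floor as deposited, so the NK sum in Gfi1-deficient cells held no measurable reading. The T cell sum in granulocytes rested mostly on Cd3d, a T cell receptor subunit gene, which read 8.48 there. Of 5 markers of plasmacytoid dendritic cells the sum was 855 in granulocytes, 632 in Gfi1-deficient cells, 271 in GFP-high cells and 1517 in GFP-low cells, and Ccr9 and Pacsin1 were under the floor throughout. Irf7, an interferon-induced factor that many cells make, gave most of the sum in granulocytes and GFP-low cells. It read 9.37 in granulocytes, 7.89 in Gfi1-deficient cells, 6.92 in GFP-high cells and 9.80 in GFP-low cells, and was 7.37-fold lower in GFP-high than in GFP-low cells. Tcf4, which plasmacytoid dendritic cells need but which is not restricted to them, had 4 of 5 measurable probe sets past 2-fold in the next pairs and was 4.97-fold lower in GFP-high than in GFP-low cells and 3.98-fold lower in granulocytes than in GFP-low cells. In granulocytes against Gfi1-deficient cells the pair went opposite ways, with log2 differences of 1.49 for Irf7 and -1.62 for Tcf4. Plasma cell markers, which include the widely expressed Xbp1, summed to 1779, 3680, 2996 and 3642. Jchain, the joining chain of secreted antibodies, was 5.98-fold lower in GFP-high than in GFP-low cells and 3.23-fold lower in Gfi1-deficient cells than in the GFP-low fraction. Mast cell and basophil markers summed to 5224, 508, 2364 and 759. In granulocytes and GFP-high cells the sum rested mostly on Hdc, a histamine-synthesising enzyme that granulocytes also make, which read 12.23 and 10.87 there. Hdc read only 6.50 in Gfi1-deficient and 7.16 in GFP-low cells, where Mcpt8 of the same list read higher, at 7.55 and 8.32. Sums for megakaryocyte markers were 432, 280, 360 and 339, and those for erythroid markers were 1247, 446, 575 and 828. The part of these cells in the readings of the SLAM genes was not tested.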

How the data were processed

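The labels' protocols describe TRIzol extraction and, from 6 µg of total RNA, biotin-labelled cRNA hybridised to Affymetrix arrays, 1 array for each of 4 populations. The deposited values were taken as log2, a scale inferred from their range (2.70 to 14.50). For the log base, summarisation, background correction and normalization, the authors' choices are not given in any source used here. Array medians lay between 5.91 and 6.01, so the values were used without further scaling; arrays brought to like medians cannot show a shift shared by most genes. Between 59.2% and 61.0% of probe sets were above the floor, and the number of arrays limits the precision.

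Of 22690 probe sets, 20380 had 1 gene in the platform annotation, which can be old, 691 had several and 1619 had none. Symbols were updated by gene identifier for 20351. Each gene was represented by whichever of its probe sets had the highest 4-array mean (12393 genes, 8621 above the floor on at least 1 array). Lower values were raised to the floor, which makes a difference against them a bound ("at least"). None is given where both arrays were under it. Differences are log2 values of the population named first minus the other, and the size rule was an absolute difference of 1. The SD between probe sets is that of the gap between the log2 differences given by a gene's 2 highest probe sets, scaled down by the square root of 2, over 2658 to 2847 genes.

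The 6 members and the other 18 lists were chosen with earlier results of these data known, so no list is independent evidence. All members are named, and in each list and pair at most 4 genes, those with the largest differences past 2-fold. Among genes named outside this rule, Flt3, Ptpn6, Inpp5d, the flanking genes, Xist and Eif2s3y were chosen after values were seen. Markers of other cells named only for lying above or under the floor, and the Beclin-VPS34 genes listed in full, also fall outside it. The code for the calls and distances was tested on simulated arrays, with differences planted only in genes well above the floor. That test does not cover genes read near the floor, such as Ly9 and Slamf9. The 6 alternatives were floors at the 20th and 60th percentiles, quantile normalization, median centring, the mean of all probe sets, and leaving out probe sets named _s_at, _x_at or _a_at. Python 3.11.15, numpy 2.4.6 and pandas 2.3.3 were used.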

Additional observations from a re-analysis of the deposited data

How the results depend on the processing

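Over the 6 alternatives, 172 of 173 differences of single receptor genes kept their sign. The exception was Ly9 in granulocytes minus GFP-high cells, 0.02 as reported and -0.05 after quantile normalization. The differences of Cd48, Cd84 and Slamf9 moved by less than the scatter between probe sets wherever they had a value. At the 60th percentile, 7 values, of Slamf9 and Ly9, were lost with both arrays under the floor.

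With that higher floor, which bounds low readings by its construction, Ly9 stood at -1.17 in GFP-high minus GFP-low, 0.47 in Gfi1-deficient minus GFP-high, -1.17 in granulocytes minus GFP-low and -0.47 in granulocytes minus Gfi1-deficient. Cd244a stood at -0.36 in GFP-high minus GFP-low, 0.95 in Gfi1-deficient minus GFP-high and 0.0228 in granulocytes minus GFP-high. Members at least 2-fold higher in Gfi1-deficient than in GFP-high cells then numbered 2, and those lower in granulocytes than in Gfi1-deficient cells 1. Cd244a also dropped out of the members at least 2-fold lower in GFP-high than in GFP-low cells.

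With the mean of all probe sets, Cd244a stood at -1.68 in GFP-high minus GFP-low, 2.72 in Gfi1-deficient minus GFP-high, 1.04 in Gfi1-deficient minus GFP-low and -1.61 in granulocytes minus Gfi1-deficient. On its second probe set alone, as left by dropping names in _a_at, it stood at 2.86 in Gfi1-deficient minus GFP-high, 1.48 in Gfi1-deficient minus GFP-low, 0.56 in granulocytes minus GFP-high, -0.82 in granulocytes minus GFP-low and -2.30 in granulocytes minus Gfi1-deficient. Under both of these settings 1 member was at least 2-fold higher in Gfi1-deficient than in GFP-low cells, against 0 as reported. Cd244a then also joined the members at least 2-fold lower in granulocytes than in Gfi1-deficient cells. For granulocytes against GFP-high cells, members past 2-fold on the higher side numbered 2 with the mean of probe sets and 2 after quantile normalization, against 1. After median centring 1 member, Cd84, passed 2-fold on the higher side in granulocytes against GFP-low cells, where 0 did as reported, its difference being 1.03. Counts of all genes past 2-fold stayed within 1.5 times of those reported under every alternative run.

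No paired analysis was possible because each population has 1 array. There was likewise no replicate to leave out. Signal near the floor limits the values of Ly9, Cd244a and Slamf9.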
